A study of Homo sapiens with 18 samples.

Results

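Overexpression of AP-2α alone was compared with the control of both transductions in 3 bladder cancer cell lines. AP-2α is the product of TFAP2A. The 6 libraries were those of Control/AP-2α↑ (KA) and Control/control (KK), 1 of each in RT-112, HT-1376 and CAL-29, out of 18 libraries in the series (6 variants in each line). All 3 lines are human urinary bladder carcinoma lines, and every library was made from a stable transductant. In the first lentiviral transduction KA and KK both received the blank control of the WWOX vector, with selection in 1 µg/mL puromycin. In the second, KA received the AP-2α vector and KK its blank control, at a multiplicity of infection of 3 and with selection in 400 µg/mL G418 for 3 weeks. Both variants thus kept their native WWOX. A variant was represented in a line by 1 library of 1 selected population, so within a line there was no replicate, and the 3 lines served as the 3 replicates (n = 3). CAGE-seq sequences the capped 5′ ends of RNA, and the authors deposited 1 value per gene in CPM, that is, read counts scaled to the size of the library. Of the 16575 genes in the table, 12450 had at least 5 CPM in 1 or more of the 6 libraries and were retained. Genes under 5 CPM in all KK libraries were thus retained through KA alone. The reverse held for genes under 5 CPM in all KA libraries. The change of a gene in a line was the difference KA minus KK on log2(CPM + 0.5), a scale on which the change of low genes is understated.

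AP-2 factors are transcription factors that bind DNA as dimers, at GC-rich palindromic sites with the core GCCNNNGGC. AP-2α and its close relative AP-2γ are active in embryonic ectoderm, in skin and in other stratified epithelia, where they act in the control of keratinocyte differentiation. WWOX is a cytoplasmic protein that can bind AP-2 proteins and hold them outside the nucleus. The normal urothelium is not keratinised, and squamous genes in a bladder tumour belong to the basal or squamous end of its differentiation, whereas uroplakins, GATA3 and PPARG mark the luminal end.

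The libraries held 14287464 to 17958572 reads on genes, and the limit of 3 reads for a gene without reads was worth 0.158 to 0.197 CPM. Among genes specific to the KK library of 1 line (at least 20 CPM there and under 0.5 CPM in the KK of both others), the KA library kept at least 10% of that level for 9 of 9 RT-112 genes, 47 of 47 HT-1376 genes and 65 of 68 CAL-29 genes. The HT-1376 KA library also held 8 of the 68 CAL-29 genes at 10% or more of their CAL-29 level, with a summed level of 63.9 CPM against 3199 CPM in CAL-29 KK, and the other KA libraries held at most 1 gene of another line. Of 14 epithelial markers 13 passed the filter, with FOXA1 at 0 and 0.11 CPM in HT-1376 KK and KA and UPK3A at or under 1.35 CPM in all 6 libraries. The summed level of the markers of other cell types was 5.40 to 18.6 CPM for 5 of 8 fibroblast genes, 2.36 to 15.9 CPM for 2 of 6 white blood cell genes and 0.33 to 3.06 CPM for 1 of 6 endothelial genes. PTPRC, CD3E, LYZ, PECAM1, VWF, KDR, DCN and PDGFRA were not analysed here.

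TFAP2A, on chromosome 6 from 10393186 to 10419659 (GRCh38, as for all positions of genes, from GENCODE 44), was examined first, as a check of the labels. Its level in KK and KA was 18.01 and 46.8 CPM in RT-112, 69.0 and 100.66 CPM in HT-1376, and 35.4 and 49.9 CPM in CAL-29. KA was higher in 3 of 3 lines, although the 3 KK and 3 KA values overlapped between lines. The ratio of KA to KK was 2.60 (95% counting interval 2.29 to 2.96) for RT-112, 1.46 (1.35 to 1.58) for HT-1376 and 1.41 (1.27 to 1.56) for CAL-29. Such intervals cover counting error only. The mean log2FC was 0.79 (SE 0.22, n = 3), with an adjusted p of 0.997 in limma with the cell line as a block. An exact sign-flip permutation over 3 pairs cannot go below 0.25 (two-sided). Whether tags of the AP-2α vector were assigned to TFAP2A is not given in the sources used here.

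The other AP-2 genes and cofactors had smaller mean changes, or changes whose direction differed between lines. TFAP2C, which encodes AP-2γ, was at 57.95 and 49.4 CPM in RT-112 KK and KA, 158 and 172 CPM in HT-1376, and 87.95 and 70.3 CPM in CAL-29. WWOX was at 26.0 and 23.5 CPM in RT-112, 22.4 and 24.7 CPM in HT-1376 and 63.7 and 51.3 CPM in CAL-29. In limma TFAP2C had a mean log2FC of −0.14 (SE 0.15) and WWOX of −0.10 (SE 0.17), both with an adjusted p of 0.997. Of the 14 tested members of this list, TFAP2A and KCTD15, a repressor of AP-2 activity, were higher in 3 of 3 lines (11.6% of all genes). PARP1 was lower in 3 of 3 (9.5% of all genes). CITED2 and CITED4, coactivators of AP-2, had mean log2FC of 0.16 and −0.14. TFAP2E did not pass the filter, with at most 1.35 CPM in any of these libraries.

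No gene passed an adjusted p of 0.05 in limma (0 of 12450, 0%), and 253 genes (2.03%) had an unadjusted p under 0.05, of which 195 were higher in KA (1.57%) and 58 lower (0.466%). A threshold of 0.05 passes a share of about 0.05 of genes when none changes, so 2.03% was no excess. The smallest adjusted p, 0.767, was shared by KLK5 and KLK8, and the next was 0.997. On reads recovered from the CPM, edgeR called these same genes (2 genes, 0.0161%, adjusted p 0.0333 for both), and DESeq2 called 17 (0.137%), all higher in KA. KLK5 and KLK8 thus had the smallest p of all genes in each of these 3 tools, while their call depended on the tool. Their adjusted p also moved with the scaling. In limma it was 0.0623 for both after TMM scaling, and 0.195 and 0.208 after quantile normalization. In limma-voom, run with TMM scaling as was edgeR, it was 0.101 for both. The 253 genes became 957 without CAL-29, 154 without RT-112 and 169 without HT-1376, with no adjusted call in any of these fits. By size alone, 40 genes were higher by more than 1.5-fold in 3 of 3 lines (0.321%) and 7 were lower (0.0562%), and with no requirement of size 1439 were higher (11.6%) and 1183 lower (9.5%) in 3 of 3 lines. Of the 40 genes 19 reached 5 CPM in each line, as did 4 of the 7. The 40 genes were short, with a median genomic span of 10.1 kb, and the 7 had 17.97 kb, against 29.5 kb over all genes. The change in CAL-29 also varied with span (Spearman's rho −0.42 across genes), and the part of span in these counts was not tested. Levels below are given first in each library, since for most genes the lines started from very different levels.

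KLK5 and KLK8 encode kallikrein-related serine peptidases, secreted proteases that in the epidermis take part in the shedding of the outermost cells. KLK5, on chromosome 19 from 50943303 to 50953093, was at 1.22 CPM in RT-112 KK and 35.9 CPM in KA, at 1.84 and 26.7 CPM in HT-1376, and at 0.34 and 9.51 CPM in CAL-29. All 3 KA libraries lay above all 3 KK libraries. The ratio was 29.5 (95% counting interval 19.3 to 47.4) for RT-112, 14.5 (9.89 to 22.0) for HT-1376 and 28.0 (12.7 to 78.1) for CAL-29, and the mean log2FC was 3.84 (SE 0.34, limma adjusted p 0.767). KLK8, on the same chromosome from 50996007 to 51002711, was at 10.9 and 64.8 CPM in RT-112, 3.09 and 21.45 CPM in HT-1376, and 24.55 and 93.8 CPM in CAL-29. Here the HT-1376 KA library lay below the CAL-29 KK library, but the ratios of 5.96, 6.94 and 3.82 were close to each other, with a mean log2FC of 2.35 (SE 0.22, limma adjusted p 0.767). Of the 13 kallikrein genes of this cluster in the table, a list drawn up after values were seen, 6 passed the filter. KLK5 and KLK8 were the ones higher in 3 of 3 lines (11.6% of all genes). KLK7, an epidermal peptidase that KLK5 can activate, was at 0.99 and 7.60 CPM in HT-1376 and 25.7 and 74.8 CPM in CAL-29 but had no reads in either library of RT-112. KLK6 was higher in RT-112 and HT-1376 and lower in CAL-29 (45.6 and 21.5 CPM), and KLK10 stayed between 11.75 and 12.3 CPM in RT-112 and between 95.8 and 98.3 CPM in CAL-29.

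**Figure D1:**
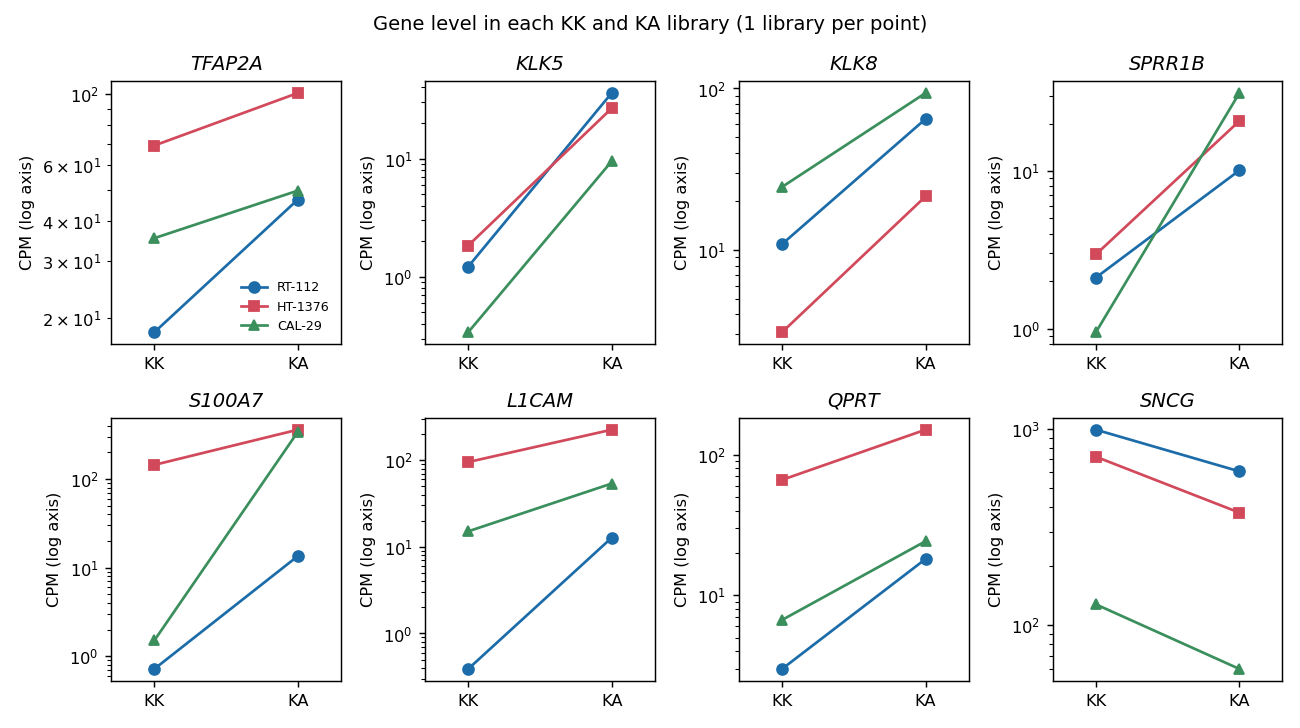
Level of 8 genes in each KK and KA library in CPM on log axes, with 1 point per library and a line joining the libraries of a cell line. TFAP2A and 6 further genes were higher in KA in each of the 3 lines, from 1.22 to 35.9 CPM for KLK5 in RT-112, and SNCG was lower in each.

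Genes of the cornified envelope, the cross-linked protein layer of differentiated keratinocytes, were higher in KA in HT-1376 and CAL-29 and only in part in RT-112. In the order RT-112, HT-1376 and CAL-29, which is used for all medians, the 13 tested genes had median changes of 0.11, 1.41 and 1.52, against 0.01, 0.16 and −0.22 over all genes. In 3 of 3 lines 6 of the 13 were higher (11.6% of all genes) and none was lower. KLK5, SPRR1B and KRT1 had at most 1.84, 2.96 and 0.92 CPM in KK, so they passed the filter through KA alone. The medians and counts of this list thus depend in part on the filter, which kept 13 of its 20 genes in the data. SPRR1B, KRT1, CRCT1 and KLK5 exceeded 1.5-fold in each line. CRCT1 was near the floor in RT-112 (0 and 0.63 CPM, 12 reads in KA) and CAL-29 (0 and 0.61 CPM, 11 reads in KA). In HT-1376 it was at 146 and 574 CPM. KLK5, a secreted protease and not a protein of the layer itself, was on this list and is already described above. None of the 13 passed the adjusted threshold in limma, and 4 had an unadjusted p under 0.05 (2.03% of all genes). SPRR1B, a small proline-rich precursor of the envelope on chromosome 1 from 153031203 to 153032900, was at 2.11 and 10.1 CPM in RT-112, 2.96 and 20.8 CPM in HT-1376, and 0.95 and 31.2 CPM in CAL-29. All KA values of SPRR1B were above all KK values (mean log2FC 3.03, SE 0.54). KRT1, a keratin of the suprabasal epidermis, was at 0.72 and 31.3 CPM in RT-112 and 0.92 and 2.10 CPM in HT-1376. CAL-29 had no reads of it in KK and 4.04 CPM in KA, at least 24.0-fold higher against a limit of 3 reads. Involucrin (IVL) did not follow, with 16.3 and 9.21 CPM in RT-112, 25.8 and 48.2 CPM in HT-1376 and 0.28 and 2.49 CPM in CAL-29. KRT13, a keratin of non-keratinised squamous epithelium, was at 408 and 396 CPM in RT-112 and under 2 CPM in the other lines.

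SPRR1B, CRCT1 and IVL lie in the epidermal differentiation complex on chromosome 1, together with most S100 genes, which encode small calcium-binding proteins. S100A7 (psoriasin), on chromosome 1 from 153457744 to 153460651, was at 0.72 and 13.5 CPM in RT-112, 144 and 360 CPM in HT-1376, and 1.51 and 341 CPM in CAL-29. The change was thus of very unequal size, with ratios of 18.8, 2.495 and 226, and the mean log2FC of 4.08 had an SE of 1.13. S100A8, a subunit of calprotectin, was at 702 and 3758 CPM in RT-112, 733 and 1097 CPM in HT-1376, and 32.3 and 5337 CPM in CAL-29. Its partner S100A9 was at 3486 and 5599 CPM in RT-112, 1204 and 1164 CPM in HT-1376, and 58.6 and 5538 CPM in CAL-29. In CAL-29 KK both lay far below the other lines, whereas in CAL-29 KA S100A8 had the highest level of the 6 libraries and S100A9 the second highest. Of the 16 tested S100 list genes 6 were higher in 3 of 3 lines (11.6% of all genes) and none was lower, with medians of 0.14, 0.26 and 0.90, and S100A7 was the one beyond 1.5-fold in each line. S100A10 and S100A11, which every line expressed strongly, were lower in RT-112 and HT-1376 and higher in CAL-29. Over the 23 tested genes of the whole complex, a list drawn up after values were seen, 10 were higher in 3 of 3 lines (11.6% of all genes) and none was lower. Neighbouring genes of 1 complex are not independent of each other.

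Basal genes showed no common direction. KRT6A, a keratin of activated keratinocytes, was at 2.33 and 4 CPM in RT-112, 0.13 and 1.48 CPM in HT-1376, and 0.50 and 12 CPM in CAL-29, beyond 1.5-fold in each line. KRT5 was at 29.75 and 21.7 CPM in RT-112, 0.20 and 9.14 CPM in HT-1376, and 20.9 and 48.7 CPM in CAL-29, and TP63, the master regulator of basal epithelium, was at 84.3 and 51.25 CPM, 94.2 and 106 CPM, and 96.6 and 82.2 CPM. Of 21 tested basal genes 2 were higher (11.6% of all genes) and 1 was lower (9.5%) in 3 of 3 lines, with medians of −0.30, 0.28 and −0.13. At the luminal end 3 of 20 tested genes were higher in 3 of 3 lines (11.6% of all genes) and 6 were lower (9.5% of all genes), none beyond 1.5-fold in each line, with medians of −0.16, −0.05 and −0.01. The 6 were KRT7, FGFR3, KLF5, ELF3, TBX3 and CD24. ELF3, an epithelial transcription factor, was at 192 and 145 CPM in RT-112, 103 and 38.9 CPM in HT-1376, and 269 and 253 CPM in CAL-29. KRT7 was at 12078 and 11614 CPM, 8612 and 7331 CPM, and 485 and 312 CPM in these lines.

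The 40 genes beyond 1.5-fold upward also held genes of other roles. L1CAM, a neural cell adhesion molecule on chromosome X from 153861514 to 153886173, was at 0.39 and 12.7 CPM in RT-112, 94.97 and 224 CPM in HT-1376, and 15.1 and 53.7 CPM in CAL-29 (mean log2FC 2.31, SE 0.54). QPRT, an enzyme of NAD synthesis from tryptophan, on chromosome 16 from 29663279 to 29698699, was at 2.99 and 18.1 CPM, 66.2 and 150 CPM, and 6.67 and 24.2 CPM (mean log2FC 1.79, SE 0.28). AOC1, the diamine oxidase that degrades histamine, was at 3.77 and 19.4 CPM in RT-112 and 6.77 and 19.35 CPM in HT-1376, and had no reads in CAL-29 KK and 5.64 CPM in KA, at least 33.5-fold higher against a limit of 3 reads. KA was higher in each line for all 3 genes, from KK levels that differed widely between lines.

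Among secreted factors, INHBA (the activin A subunit) was at 1.44 and 2.58 CPM in RT-112, 0.39 and 4.99 CPM in HT-1376, and 3.81 and 15.98 CPM in CAL-29. FGFBP1, which releases fibroblast growth factors from the matrix, was at 0.50 and 2.10 CPM, 9.87 and 41.65 CPM, and 2.52 and 5.47 CPM. F3 (tissue factor), the cell surface trigger of coagulation, was at 13.85 and 23.3 CPM, 31.7 and 73.1 CPM, and 28.1 and 57.7 CPM, with a mean log2FC of 0.98 (SE 0.17). The chemokine CXCL5, the vasoconstrictor EDN1 and the 4-1BB ligand TNFSF9 also exceeded 1.5-fold in each line, all from under 6 CPM in KK. In RT-112 CXCL5 had 7 reads in KK and 16 in KA, with a 95% counting interval of the ratio of 0.845 to 6.24. Among transcription factors, PITX1 was at 72.6 and 132 CPM in RT-112, 0.92 and 3.57 CPM in HT-1376, and 46.8 and 101.41 CPM in CAL-29. SOX9, a factor of progenitor cells, was at 6.65 and 11.3 CPM, 1.32 and 6.07 CPM, and 13.5 and 45.9 CPM. MT2A, a metallothionein that binds zinc and copper, was at 107 and 313 CPM in RT-112, 2243 and 3544 CPM in HT-1376, and 499 and 965 CPM in CAL-29. MT1X was beyond 1.5-fold in each line as well. Of 7 tested metallothioneins 4 were higher in 3 of 3 lines (11.6% of all genes), on a list drawn up after values were seen. P2RX5 and the readthrough gene P2RX5-TAX1BP3 had identical values in all libraries, so the 40 genes rest on 39 separate signals.

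Fewer genes were lower in 3 of 3 lines, and their changes were smaller. SNCG (γ-synuclein), on chromosome 10 from 86958599 to 86963258, was at 990 and 608 CPM in RT-112, 721 and 375 CPM in HT-1376, and 128 and 59.9 CPM in CAL-29. The ratios were 0.613 (95% counting interval 0.599 to 0.628), 0.519 (0.504 to 0.536) and 0.469 (0.436 to 0.504), and the mean log2FC was −0.91 (SE 0.14, limma adjusted p 0.997). TNFSF10 (TRAIL), a death receptor ligand on chromosome 3 from 172505508 to 172523475, was at 13.7 and 8.52 CPM, 33.7 and 16.8 CPM, and 27.7 and 5.25 CPM. A4GALT, which makes the globoside Gb3, was at 53.1 and 22.5 CPM, 11.8 and 5.79 CPM, and 32.2 and 20.6 CPM. ORAI3, a calcium channel subunit, was at 37.4 and 24.5 CPM, 32.5 and 18.8 CPM, and 104 and 58.2 CPM. The other genes of the 7 were ATP1A4, ATP7B and UBA7, each under 5 CPM in both libraries of at least 1 line. Among genes with at least 5 CPM in each line, ranked by the line that moved least, SNCG, TNFSF10, A4GALT and ORAI3 were followed by GLUL (glutamine synthetase), the matrix gene FBLN1, the transcription factor ATOH8 and the metalloproteinase inhibitor TIMP3, with mean log2FC of −0.60, −0.50, −1.45 and −0.50. TIMP3 was at 195 and 144 CPM in RT-112, 978 and 639 CPM in HT-1376, and 329 and 242 CPM in CAL-29.

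**Figure D2:**
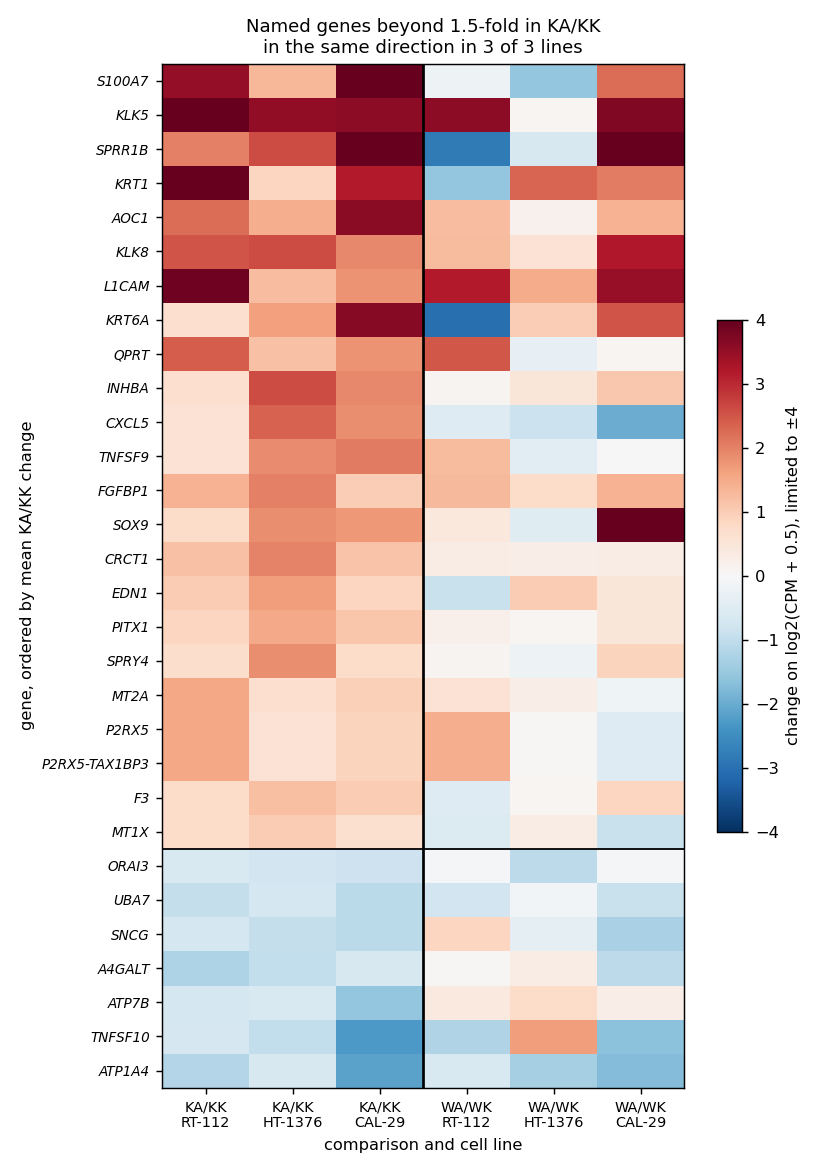
Change on log2(CPM + 0.5) of 23 of the 40 genes higher and the 7 genes lower by more than 1.5-fold in 3 of 3 lines, those named in the text, ordered by their mean, in KA/KK (left 3 columns) and in WA/WK (right 3 columns), with colour from blue (lower) to red (higher) limited at ±4. The left columns hold 1 direction by the choice of genes, and the right columns hold both, with L1CAM, KLK8 and FGFBP1 among the genes higher in each of the 6 and the ones beyond 1.5-fold in each.

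The sequences before the start sites of these genes were examined for the AP-2 core, because AP-2α acts through such sites. RefSeq promoters (GRCh38.p14) were matched by symbol for 28 of the 40 genes and 6 of the 7, with 250 bases before each start. The core GCCNNNGGC, which reads the same on both strands, was found in 16 of the 41 promoters of the higher genes (39.0%) and in 2 of the 10 promoters of the lower genes, against 27.3% of the 13940 promoters of all tested genes and 19.8% of the 35116 promoters of the table. By gene it was in at least 1 promoter of 14 of the 28 and 2 of the 6, against 3339 of 9658 tested genes with a promoter (34.6%). These are descriptions, with no test, and a match does not show a bound site. The promoters of 5 leading genes are printed 5′ to 3′ in the direction of the gene, KLK5 (chr19:50953039-50953288, − strand), SPRR1B (chr1:153030953-153031202, + strand), S100A7 (chr1:153460652-153460901, − strand), AOC1 (chr7:150852267-150852516, + strand) and F3 (chr1:94541760-94542009, − strand), with the core in capitals, to show genes with no match, 1 match and 4 matches side by side.
KLK5: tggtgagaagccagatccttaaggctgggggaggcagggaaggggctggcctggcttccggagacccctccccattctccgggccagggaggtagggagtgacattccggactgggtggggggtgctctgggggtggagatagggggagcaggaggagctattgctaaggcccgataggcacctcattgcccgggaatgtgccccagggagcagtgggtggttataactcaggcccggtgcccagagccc
SPRR1B: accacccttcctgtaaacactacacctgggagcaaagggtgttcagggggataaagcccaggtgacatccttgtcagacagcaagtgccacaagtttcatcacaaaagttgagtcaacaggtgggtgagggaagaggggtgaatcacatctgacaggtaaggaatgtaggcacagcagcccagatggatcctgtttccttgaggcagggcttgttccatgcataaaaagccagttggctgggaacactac
S100A7: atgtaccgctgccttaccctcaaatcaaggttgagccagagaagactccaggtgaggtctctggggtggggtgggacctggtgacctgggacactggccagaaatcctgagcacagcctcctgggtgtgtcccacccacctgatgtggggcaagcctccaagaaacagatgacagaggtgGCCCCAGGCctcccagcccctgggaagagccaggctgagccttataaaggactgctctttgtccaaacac
AOC1: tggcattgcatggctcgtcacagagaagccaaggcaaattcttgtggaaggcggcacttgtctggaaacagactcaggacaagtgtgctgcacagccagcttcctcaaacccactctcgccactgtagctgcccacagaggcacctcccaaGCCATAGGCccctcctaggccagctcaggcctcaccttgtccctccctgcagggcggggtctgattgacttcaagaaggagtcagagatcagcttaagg
F3: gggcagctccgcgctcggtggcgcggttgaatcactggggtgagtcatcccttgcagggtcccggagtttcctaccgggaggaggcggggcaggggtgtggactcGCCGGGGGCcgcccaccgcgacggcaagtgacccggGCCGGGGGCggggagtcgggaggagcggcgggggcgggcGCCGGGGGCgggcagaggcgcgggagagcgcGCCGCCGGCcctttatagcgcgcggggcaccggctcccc
These 5 were chosen to show different numbers of matches, so no relation between matches and ratios can be read from them. KLK5 and SPRR1B had no match in this window. S100A7 had 1, which began 70 bases before the start, and AOC1 had 1, which began 99 bases before it. F3 had 4, which began 145, 109, 70 and 39 bases before the start. The F3 promoter had 34 CpG dinucleotides and 78.0% G and C, and the SPRR1B promoter had 0 and 50.8%.

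A list of 30 genes described as AP-2 targets in textbooks was counted in the same way. Of its 21 tested members 1 was higher in 3 of 3 lines (11.6% of all genes) and none was lower, with medians of −0.19, 0.20 and 0.06. ERBB2, the receptor gene best known as an AP-2 target, was at 177 and 178 CPM in RT-112, 99.7 and 90.7 CPM in HT-1376, and 82.0 and 84.9 CPM in CAL-29. CDH1 (E-cadherin) was at 93.4 and 110 CPM, 146 and 168 CPM, and 831 and 434 CPM, higher in RT-112 and HT-1376 and lower in CAL-29. CDKN1A (p21) was at 84.4 and 89.0 CPM, 186 and 280 CPM, and 748 and 579 CPM, with the same split. The member higher in 3 of 3 lines was ECM1, at 3.66 and 4.05 CPM, 92.9 and 163 CPM, and 0.28 and 0.55 CPM.

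In KA/KK, chemokine and cytokine genes were higher mainly in HT-1376 and CAL-29. For 21 tested chemokines and cytokines the medians were −0.09, 1.19 and 0.76, 7 were higher and none lower in 3 of 3 lines (11.6% and 9.5% of all genes), and at 2-fold 13 were higher in HT-1376 (4.72% of all genes), 9 in CAL-29 (2.63%) and none in RT-112 (1.18%). CCL2, the monocyte chemoattractant, was at 0 and 0.11 CPM in RT-112, 2.76 and 24.45 CPM in HT-1376, and 6.67 and 52.0 CPM in CAL-29. Its level in RT-112 KA was 2 reads. DESeq2 called CCL2 (adjusted p 1.9e-08) while limma did not. CXCL1 was at 0.11 and 0 CPM, 2.56 and 13.2 CPM, and 20.35 and 147 CPM. CXCL8 was at 4.10 and 5.52 CPM, 2.56 and 5.73 CPM, and 8.46 and 35.0 CPM. All libraries came from cultured carcinoma lines. The white blood cell list had 2 of 6 genes in the data. Its summed level was 11.75 and 6.63 CPM in RT-112 KK and KA, 2.36 and 2.38 CPM in HT-1376, and 14.2 and 15.9 CPM in CAL-29. Most of this was CD68, at 11.75 and 6.58 CPM, 2.10 and 2.38 CPM, and 14.2 and 15.4 CPM. Any relation to the chemokine values was not tested. In bulk RNA of a cultured line, more cells that express a gene and more RNA per cell cannot be told apart.

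For 17 tested genes of FGF receptors and of the feedback of ERK signalling the medians were −0.03, 0.97 and 0.32, with 5 higher and 2 lower in 3 of 3 lines (11.6% and 9.5% of all genes), and in CAL-29 alone 9 of the 17 were higher. For 11 ERBB receptors and ligands the medians were 0.01, 0.70 and −0.22, with 1 higher (11.6% of all genes) and none lower (9.5%) in 3 of 3 lines. FGFBP1 and SPRY4, a feedback inhibitor, exceeded 1.5-fold in each line, and FOSL1, an AP-1 subunit, was at 20.5 and 29.2 CPM in RT-112, 9.54 and 37.6 CPM in HT-1376, and 24.7 and 122 CPM in CAL-29. The lower genes were receptors, with FGFR3 at 125.66 and 111.96 CPM in RT-112, 0.20 and 0 CPM in HT-1376 and 5.44 and 3.04 CPM in CAL-29, and FGFR2 at 7.81 and 4.10 CPM, 19.9 and 19.5 CPM, and 17.9 and 11.7 CPM. Of 28 genes of cholesterol and fatty acid synthesis 5 were higher (11.6% of all genes) and none lower in 3 of 3 lines, with medians of 0.01, 0.56 and 0.55. For 25 tested NRF2 and antioxidant genes 6 were higher (11.6% of all genes) and none lower in 3 of 3 lines, with medians of 0.14, 0.37 and 0.05. TXN (thioredoxin) was at 1787 and 2133 CPM in RT-112, 677 and 1498 CPM in HT-1376, and 1724 and 3044 CPM in CAL-29.

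The counts of the other lists in 3 of 3 lines are to be read against 11.6% of all genes higher and 9.5% lower. For 22 interferon-stimulated genes none was higher and 2 were lower in 3 of 3 lines, with medians of −0.30, −0.11 and −0.11. For 15 genes of MHC class I presentation 1 was higher and 2 were lower. For 22 p53 targets none was higher and 5 were lower, with medians of −0.17, 0.19 and −0.31. Of 34 genes of replication and mitosis 8 were higher and 2 lower, with medians of 0.23, 0.17 and −0.07, and CDC20 was at 241 and 307 CPM in RT-112, 759 and 930 CPM in HT-1376, and 67.7 and 174 CPM in CAL-29. For 12 mesenchymal genes the medians were −0.14, 1.39 and 0.18, and TAGLN was the member higher in 3 of 3 lines. VIM, the mesenchymal filament gene, had no reads in any of these libraries of RT-112 and HT-1376 and was at 19.7 and 1.88 CPM in CAL-29. The CAL-29 libraries labelled WWOX↑/control and WWOX↑/AP-2α↑ both held it at 0.11 CPM. The CAL-29 change comes from 1 pair of libraries, and why KK held more was not tested. Of 26 junction genes 2 were higher and 3 lower, of 32 matrix and integrin genes 2 and 4, of 26 Wnt pathway genes 6 and 3, and of 26 TGF-β and BMP pathway genes 2 and 1. No member of any list passed the adjusted threshold in limma.

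**Figure D3:**
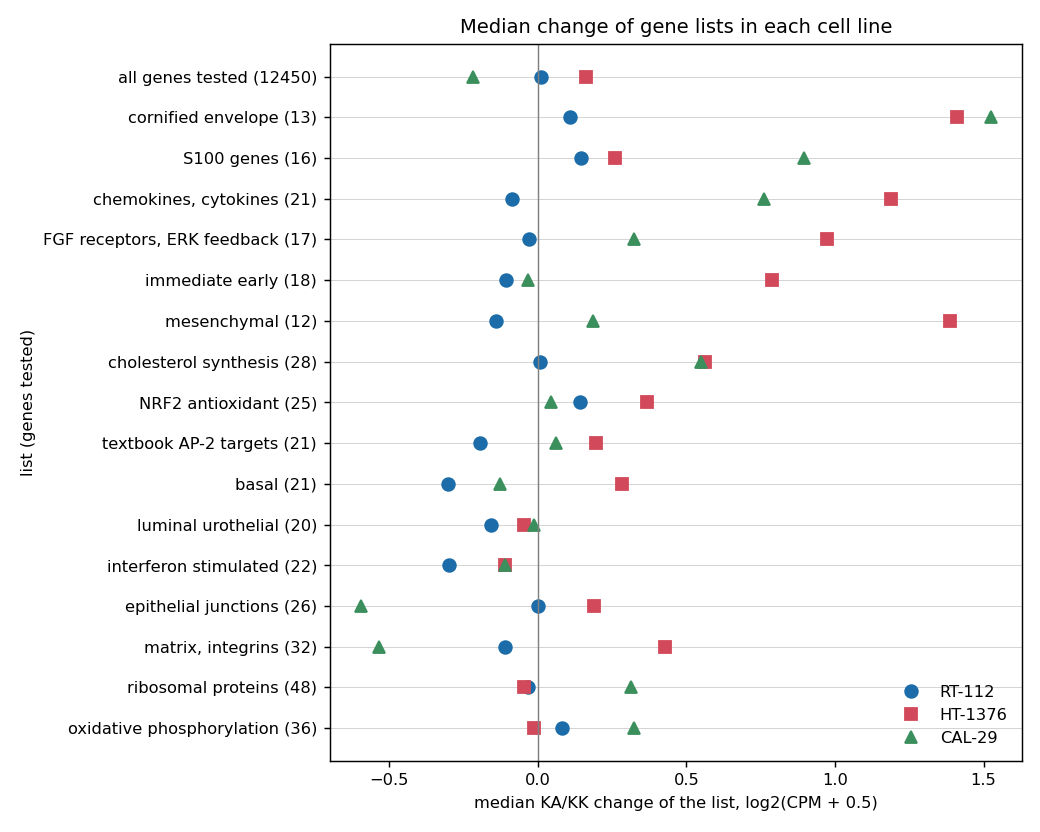
Median KA/KK change on log2(CPM + 0.5) of 16 gene lists and of all 12450 genes, with 1 symbol per cell line and the number of tested genes in brackets. The cornified envelope list lay at 0.11, 1.41 and 1.52 in RT-112, HT-1376 and CAL-29, and the median of all genes at 0.01, 0.16 and −0.22.

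The 3 lines differed in how many genes passed 2-fold, and in which direction. At 2-fold, 147 genes were higher (1.18%) and 72 lower (0.578%) in RT-112, 588 higher (4.72%) and 66 lower (0.53%) in HT-1376, and 328 higher (2.63%) and 2802 lower (22.5%) in CAL-29. Across genes the changes had a Pearson r of 0.18 between RT-112 and HT-1376, −0.10 between RT-112 and CAL-29 and −0.12 between HT-1376 and CAL-29, where genes are not independent replicates. Whether AP-2α acted differently between lines was tested in limma over the 12 libraries labelled KK, KA, WK and WA, and no gene passed (0 of 12450, 0%, smallest adjusted p 0.99996), with 290 genes (2.33%) at an unadjusted p under 0.05. The smallest unadjusted p was 8.87e-05, for SUSD2. The model had no term for WWOX by AP-2α, so it averaged KA/KK and WA/WK within a line. Differences between these 2 comparisons counted as residual variation. The test therefore cannot decide whether KA/KK itself differed between lines.

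In RT-112 the largest increases were in SUSD2, KRT1, SPDEF and KLK5. SUSD2, a membrane protein gene, went from 1 read in KK to 501 in KA (0.06 and 26.4 CPM), with a counting interval of the ratio of 85.0 to 18829, and had at most 0.72 CPM in the other lines. SPDEF, a transcription factor of secretory epithelial cells, was at 0.22 and 15.5 CPM in RT-112, without reads in HT-1376, and at 0 and 2.16 CPM in CAL-29. The largest decreases in RT-112 were in IFI27, GKN1, MUC4 and PIK3IP1. GKN1, a secreted gastric protein, was at 25.2 and 4.52 CPM in RT-112 and at or under 0.23 CPM in the other lines, and the mucin MUC4 was at 11.25 and 2 CPM in RT-112 and 99.0 and 63.0 CPM in CAL-29.

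In HT-1376 the largest increases were in IL24, GAGE10, FOS and FOSB. IL24, a cytokine of the IL-10 family, was at 1.25 and 59.4 CPM, a ratio of 47.5 (95% counting interval 30.3 to 79.3). GAGE10, a cancer-testis gene, had no reads in KK and 227 in KA (12.9 CPM), at least 65.3-fold higher against a limit of 3 reads. FOS was at 2.17 and 70.9 CPM and EGR1 at 15.7 and 152 CPM. At 2-fold 8 of 18 tested immediate early genes were higher in HT-1376 (4.72% of all genes), 1 in CAL-29 (2.63%) and none in RT-112 (1.18%). Immediate early genes are the first to be transcribed after a stimulus to the cell. In CAL-29 FOS was lower, at 45.2 and 7.52 CPM. The largest decreases in HT-1376 were in ATOH8, LAMB4, EDARADD and S100P.

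In CAL-29 the largest increases were in S100A7, S100A8, S100A9 and PI3. PI3 (elafin), an elastase inhibitor of squamous epithelium, was at 1.51 and 180 CPM in CAL-29, 6.65 and 52.1 CPM in RT-112, and 1.91 and 1.13 CPM in HT-1376. The many lower values in CAL-29 varied with the span of the gene on the genome. In 6 groups of genes by span, with medians from 3.17 to 168 kb, the median change in CAL-29 was 0.14, 0.01, −0.11, −0.37, −0.56 and −0.87, and the share of genes lower by 2-fold went from 6.56% in the shortest group to 44.6% in the longest. Across 12437 genes Spearman's rho of the change with span was −0.42 in CAL-29, against 0.04 for RT-112 and 0.21 for HT-1376. The part of span in the CAL-29 medians of the gene lists was not tested. For 48 ribosomal protein genes the medians were −0.03, −0.05 and 0.31, and for 36 genes of oxidative phosphorylation 0.08, −0.01 and 0.33. The genes lower by 2-fold in CAL-29 had median changes of 0.17 in RT-112 and 0.33 in HT-1376, and a median level of 22.6 CPM in CAL-29 KK, against 25.4 CPM over all genes. After TMM scaling, which moved the CAL-29 values by 0.31 on the log2 scale and those of HT-1376 by −0.15, the counts at 2-fold in CAL-29 were 811 higher and 1856 lower, and the median change was 0.09. The KA library of CAL-29 had a Pearson r of 0.954 with its own KK, against 0.991 in RT-112 and 0.984 in HT-1376. Whether this pattern belongs to AP-2α or to 1 of these libraries cannot be told apart within KA/KK.

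**Figure D4:**
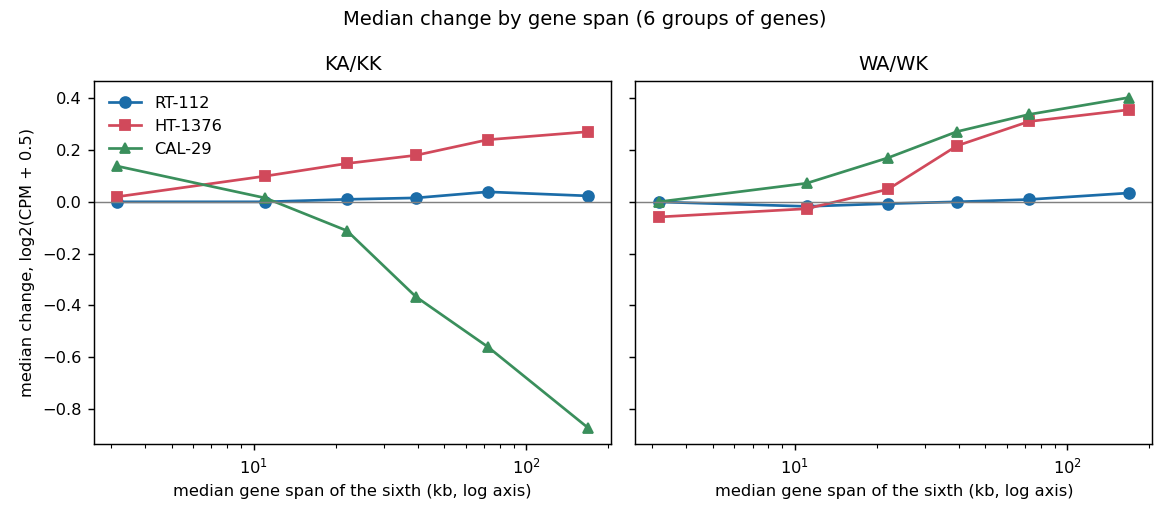
Median change on log2(CPM + 0.5) of 6 groups of genes by genomic span (x axis, median span of the group in kb, log axis), in KA/KK (left) and WA/WK (right), with 1 line per cell line. In CAL-29 the median of the longest group was −0.87 in KA/KK and 0.40 in WA/WK.

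The libraries labelled WWOX↑/AP-2α↑ (WA) and WWOX↑/control (WK) give AP-2α against its control on the WWOX vector, and WA/WK shares no library with KA/KK. The levels of WWOX and TFAP2A did not follow these labels in every line. Whether tags of either vector were assigned to these genes is not given in the sources used here. The paper checked the transductions by Western blot of WWOX and the AP-2 factors, which these RNA levels do not replace. WWOX was at 22.3 and 18.95 CPM in the libraries labelled WK and WA of RT-112, 18.6 and 19.2 CPM in those of HT-1376, and 154.92 and 69.3 CPM in those of CAL-29, so that it was above the KK level in CAL-29 alone. TFAP2A was higher in the library labelled WA in RT-112 and CAL-29 and lower in HT-1376, at 20.3 and 25.3 CPM in RT-112 WK and WA, 76.9 and 69.9 CPM in HT-1376 and 61.7 and 86.7 CPM in CAL-29. Across genes the Pearson r of WA/WK with KA/KK was positive in RT-112 (0.23) and HT-1376 (0.10) and negative in CAL-29 (−0.39), and for the group of longest genes the median in CAL-29 was −0.87 in KA/KK and 0.40 in WA/WK. Of the 40 higher genes, 26 were higher in WA/WK in RT-112 (48.8% of all genes), 26 in HT-1376 (60.6%) and 30 in CAL-29 (63.3%), 12 were higher in 3 of 3 lines (23.6%) and 32 in at least 2 lines (59.6%). Their medians in WA/WK were 0.40, 0.17 and 0.74, against 0.00, 0.12 and 0.20 over all genes. L1CAM, KLK8 and FGFBP1 exceeded 1.5-fold in 3 of 3 lines in WA/WK also (3 of 40, against 2.08% of all genes). L1CAM was at 0.98 and 12.7 CPM in RT-112 WK and WA, 10.1 and 29.01 CPM in HT-1376, and 6.69 and 79.85 CPM in CAL-29. KLK8 was at 23.8 and 57.5 CPM, 36.0 and 54.3 CPM, and 2.04 and 22.9 CPM. KLK5 was at 5.99 and 76.3 CPM in RT-112 and 0.06 and 6.87 CPM in CAL-29 but at 66.1 and 69.9 CPM in HT-1376, where WK already lay above every KA library. SPRR1B split, with 18.1 and 2.12 CPM in RT-112, 235 and 151 CPM in HT-1376 and 2.60 and 92.1 CPM in CAL-29. S100A7 was higher in WA in CAL-29 alone. CAL-29 WK, without the AP-2α vector, held S100A8 at 1179 CPM and S100A9 at 1538 CPM. The changes in WA/WK were −0.78, −0.43 and 0.67 for S100A8 and −0.50, −0.40 and −0.07 for S100A9. The medians in WA/WK were −0.10, −0.26 and −0.05 for the S100 list and −0.24, 0.19 and 2.04 for the cornified envelope list. Of the 7 lower genes, 4, 4 and 6 were lower in WA/WK in the 3 lines (48.8%, 38.4% and 35.7% of all genes), 3 were lower in 3 of 3 (9.74%) and 5 in at least 2 lines (38.2%). For the 21 tested chemokines and cytokines the medians in WA/WK were −0.25, 0.02 and −0.65. CXCL5 was lower in WA in 3 of 3 lines, with changes of −0.53, −0.86 and −1.99. No gene passed an adjusted p of 0.05 in WA/WK in limma (0 of 12450, 0%), and 1397 (11.2%) had an unadjusted p under 0.05.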

How the data were processed

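CAGE-seq was measured in 18 libraries, and the 6 KA and KK libraries are described here, grouped by their labels. The authors mapped 75-nt reads to hg38 with BWA and HISAT2 2.0.5 (version per the labels), clustered tags with Paraclu and deposited CPM per gene. The annotation behind the genes and the denominator of the CPM are not given in the sources used here. Gene symbols were taken from GENCODE 44 by unversioned identifier (16553 of 16575 matched). The members and lists were chosen with earlier results of these data known. Whole reads were recovered from the CPM, since 99.97% to 99.99% of the values above 0 were whole multiples of a common step within 0.0051 CPM. Depth was 14287464 to 17958572 reads on genes. Genes with at least 5 CPM in 1 of the 6 libraries were fitted on log2(CPM + 0.5) in limma 3.58.1 (R 4.3.3, trended variance, Benjamini-Hochberg adjustment) with the cell line as a block, since the libraries of a line are pairs by construction. The study used limma-voom. Alternatives were limma-voom with the block, limma without it, fits over all 18 libraries, edgeR 4.0.16, DESeq2 1.42.0, TMM and quantile scaling, pseudocounts of 0.05 and 2 CPM, other filters and each line left out. Ratio intervals are exact conditional (Clopper-Pearson, 95%). Genes were named where they were AP-2 genes or cofactors, among the 12 highest and 12 lowest by the line that moved least (at least 5 CPM in each line), among the 4 largest changes per line, beyond 1.5-fold in 3 of 3 lines, or the leading or central members of a list. Others are side examples chosen after values were seen. Fits were tested on simulated data. Python 3.11.15, NumPy 2.4.6, pandas 2.3.3, SciPy 1.17.1 and matplotlib 3.10.9 were used. EdgeR on the recovered reads called 2 genes. Some genes are not reported here.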

Additional observations from a re-analysis of the deposited data

Results flagged for a closer look

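Several genes moved by more than 2-fold in opposite directions in different lines, each from 1 pair of libraries. On log2(CPM + 0.5), the HT-1376 and CAL-29 values of FOS were 4.74 and −2.51, and those of FOSB 4.06 and −1.33. The CAL-29 value of IFI27, an interferon-stimulated gene, was 1.08 and its RT-112 value −2.38. For MMP1, a collagenase, they were 3.17 and −1.68. In the test of AP-2α by line over the libraries labelled KK, KA, WK and WA (limma, 12 libraries) none of them passed, with an adjusted p of 0.99996 for each. That test averaged KA/KK and WA/WK within a line, and within KA/KK alone the difference between lines was not tested.

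The median change of the genes with the longest span had opposite signs, 0.27 in HT-1376 against −0.87 in CAL-29. The CAL-29 median was 0.40 in WA/WK, which shares no library with KA/KK. These differences were not tested.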

How the results depend on the processing

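Limits of these data are the single library per variant and line, a scale that understates low genes, and a pattern by gene span in CAL-29. TFAP2A kept its direction and its side of the threshold under every alternative run, from 0.51 to 0.95 with a line left out. The count of genes at an adjusted p under 0.05 in limma was 0 under each pseudocount, filter, scaling, block and library choice and in limma-voom, 2 in edgeR and 17 in DESeq2. Without the replicate block limma also called 0 genes, and 9 had an unadjusted p under 0.05 against 253 with it, so the block changed no call. Of 40 genes higher and 7 lower by 1.5-fold in 3 of 3 lines, the counts became 71 and 20 with a pseudocount of 0.05 CPM, 21 and 2 with 2 CPM, 24 and 4 with at least 5 CPM in 3 libraries, 11 and 0 at 2-fold, and 1439 and 1183 by sign alone. They were 198 and 65 without RT-112, 102 and 125 without HT-1376, and 294 and 31 without CAL-29, which follows from asking for fewer lines. After TMM scaling 31 of the 40 and 5 of the 7 stayed beyond 1.5-fold, and after quantile normalization 25 and 5, with the sign kept in each line by all 40 and all 7 under both.

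At 2-fold within a line, the pseudocount of 0.05 CPM gave 362 higher and 213 lower genes in RT-112 and 962 and 132 in HT-1376. With 2 CPM there were 53 and 30 in RT-112, 350 and 43 in HT-1376, and 207 higher in CAL-29. The stricter filter gave 81 and 40 in RT-112 and 347 higher in HT-1376, and no filter gave 109 lower in RT-112. TMM scaling gave 120 lower in HT-1376 and 811 higher and 1856 lower in CAL-29. Quantile normalization gave 97 higher in RT-112, 339 higher and 158 lower in HT-1376, and 1292 higher and 1861 lower in CAL-29. At 1.5-fold there were 770 and 392 in RT-112, 1882 and 330 in HT-1376, and 1084 and 4260 in CAL-29. The causes of these shifts were not tested.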
